A study of Mus musculus with 203 samples.

Results

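Transcripts of 10 non-collagen matrix and crosslinking genes were followed through RNA-seq libraries of dissected mouse lung. The genes were taken by name after the Ensembl identifiers of the count table were matched to mouse symbols, and all 10 were found among the 43346 identifiers of the table. They comprise elastin (Eln) and fibrillin 1 (Fbn1), the lysyl oxidases Lox, Loxl1 and Loxl2, fibronectin (Fn1), tenascin C (Tnc), periostin (Postn), thrombospondin 4 (Thbs4) and versican (Vcan). All 10 passed the filter on low counts in every fit, Thbs4 through the groups in which it was high.

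Elastic fibres let the lung recoil. They consist of an elastin core laid onto a scaffold of fibrillin microfibrils, and lysyl oxidases, copper enzymes that oxidise lysine side chains, join elastin and collagen chains into insoluble fibres. Fibronectin is an adhesive glycoprotein laid down early in repair, tenascin C and thrombospondin 4 are matricellular glycoproteins that are sparse in resting tissue, periostin is a matricellular protein known as a marker of type 2 airway inflammation, and versican is a large chondroitin sulfate proteoglycan that binds hyaluronan.

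The mice were female Balb/C, with a labelled age of 18-20 weeks, and their airways were separated from the parenchyma by blunt dissection. At 3 weeks, mice had received house dust mite extract (HDM) intranasally on 5 days a week, a model of allergic asthma, or phosphate buffered saline (PBS) as the vehicle. There were 11 PBS airway, 10 HDM airway, 12 PBS parenchyma and 10 HDM parenchyma libraries. At 11 weeks there were 16 groups of 10 libraries: PBS or HDM (5 days a week for 3 weeks, then 3 times a week to week 11), each with normal air (AIR) or cigarette smoke (CS, 5 days a week for 8 weeks, a model of chronic obstructive pulmonary disease), each with or without dexamethasone (DEX), a glucocorticoid, during week 11, in both tissues. All groups share strain and sex, no allele was altered, and the labels do not say which airway and parenchyma libraries came from one animal. The tissues were compared as independent samples, although an airway and a parenchyma library of one group usually have consecutive codes.

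Total counts ran from 13003154 to 40240733 per library. Markers of airway epithelium summed to a median of 69730 CPM (read counts scaled to library size with TMM factors) in PBS airways and 30240 in PBS parenchyma at 3 weeks, and markers of alveolar epithelium to 18860 and 28230, so each tissue held cells of the other. Airway libraries also varied in markers of other cells: the summed level of 5 cardiomyocyte markers ranged from 245 to 3672 CPM among PBS airway libraries at 3 weeks and that of 7 fibroblast markers from 1397 to 4122. In parenchyma the fibroblast sum ranged from 638 to 877. At 11 weeks, HDM AIR DEX parenchyma replicate 2, the shallowest library, and HDM AIR parenchyma replicate 4 stood apart from the rest of their groups, and leaving both out changed 4 of the 280 calls on these genes. In whole tissue, fewer cells of a type and less RNA per cell cannot be told apart.

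In GENCODE M21 on GRCm38, Eln lies on the minus strand at chr5:134702593-134747323, Fbn1 at chr2:125300594-125507993 (minus), Loxl1 at chr9:58287738-58313186 (minus) and Loxl2 at chr14:69609068-69695834 (plus). Fn1 lies at chr1:71585520-71653200 (minus), Tnc at chr4:63959785-64047015 (minus), Postn at chr3:54361109-54391037 (plus), Thbs4 at chr13:92751590-92794818 (minus) and Vcan at chr13:89655312-89742509 (minus).

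RefSeq promoter windows, 250 bases before to 50 after the transcription start, matched 5 of the 10 genes and are shown for the 4 of them whose level changed in parenchyma at 3 weeks of HDM: Thbs4 (chr13:92794769-92795068, minus), Vcan (chr13:89742463-89742762, minus) and Tnc (chr4:64046966-64047265, minus), which rose, and Postn (chr3:54360857-54361156, plus), which fell. Fbn1 is the other matched gene. All are 5′ to 3′ from the GRCm38.p6 table, with matches to the TATA motif TATAAA in capitals.
Thbs4: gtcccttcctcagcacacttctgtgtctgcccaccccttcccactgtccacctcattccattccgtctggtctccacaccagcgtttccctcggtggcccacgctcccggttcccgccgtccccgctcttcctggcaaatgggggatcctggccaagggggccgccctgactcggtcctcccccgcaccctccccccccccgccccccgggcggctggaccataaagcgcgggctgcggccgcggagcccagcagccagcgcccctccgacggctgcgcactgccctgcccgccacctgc
Vcan: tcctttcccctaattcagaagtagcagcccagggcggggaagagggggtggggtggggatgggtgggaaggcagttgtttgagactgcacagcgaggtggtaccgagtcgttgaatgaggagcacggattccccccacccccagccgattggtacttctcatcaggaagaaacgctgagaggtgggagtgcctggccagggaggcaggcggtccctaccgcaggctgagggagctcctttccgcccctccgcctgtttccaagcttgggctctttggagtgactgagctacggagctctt
Tnc: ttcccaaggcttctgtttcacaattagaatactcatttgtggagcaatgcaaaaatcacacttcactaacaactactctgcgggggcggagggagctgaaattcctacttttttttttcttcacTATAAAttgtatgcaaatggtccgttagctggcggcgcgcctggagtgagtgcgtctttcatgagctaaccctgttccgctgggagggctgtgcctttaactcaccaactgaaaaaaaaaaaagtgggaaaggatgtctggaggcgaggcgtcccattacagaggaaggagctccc
Postn: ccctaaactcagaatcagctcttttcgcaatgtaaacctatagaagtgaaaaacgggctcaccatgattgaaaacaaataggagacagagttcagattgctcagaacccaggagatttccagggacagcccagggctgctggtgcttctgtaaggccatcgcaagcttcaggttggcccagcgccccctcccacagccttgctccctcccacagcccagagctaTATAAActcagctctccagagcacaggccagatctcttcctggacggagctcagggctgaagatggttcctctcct
Both strands were searched for TATAAA, for the AP-1 motif TGANTCA and for the STAT motif TTCNNNNGAA, which were present in 13.6%, 7.81% and 6.95% of 32851 promoter windows of this length. The matches in these windows were TATAAA in Postn, which starts at -26 from the transcription start, and TATAAA in Tnc at -126. A match of letters is a description of the window and not evidence of binding.

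The first comparison asked how 3 weeks of HDM changed these genes in each tissue. In HDM-exposed parenchyma, 6 of the 10 rose (Thbs4, Eln, Vcan, Tnc, Fn1 and Lox) and 2 fell (Postn and Loxl1), while Fbn1 and Loxl2 did not pass the test. In HDM-exposed airways 5 rose (Thbs4, Eln, Fn1, Tnc and Lox) and the same pair fell. HDM altered most of the transcriptome: of 17381 genes tested, 34.1% rose and 40.5% fell in airways and 33.4% rose and 44.3% fell in parenchyma, so these counts are to be read against a high background. The median log2 fold change (log2FC, HDM less PBS) of the 10 genes was 0.37 in airways and 0.95 in parenchyma, against -0.07 and -0.13 over all genes tested. The 10 genes were chosen with earlier results of these data known, so this contrast is a description only.

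**Figure D1:**
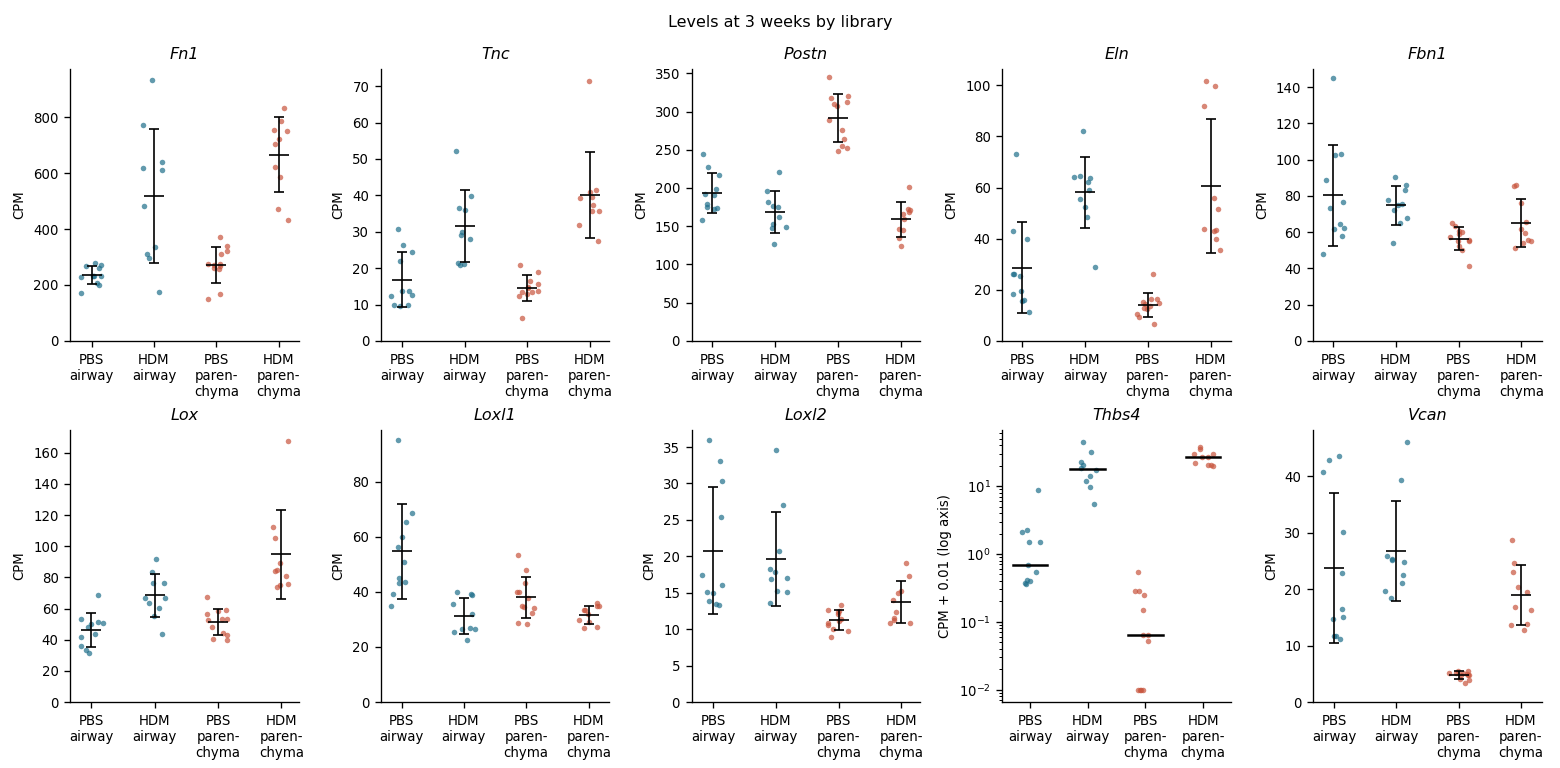
Level of each gene in every library at 3 weeks, in CPM (y axis), for PBS and HDM airway (blue, 11 and 10 libraries) and PBS and HDM parenchyma (red, 12 and 10 libraries), with bars for mean ± SD. Thbs4 is drawn on a log axis as CPM + 0.01 with the median as the bar, and its 10 HDM parenchyma libraries, at 19.9 to 37.5 CPM, sit above all 12 PBS parenchyma libraries, at 0 to 0.53 CPM.

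Thbs4, which is known from tendon, muscle and heart, was nearly absent from PBS parenchyma and abundant after HDM. Its level in PBS parenchyma had a lowest value of 0, a median of 0.0545 and a highest value of 0.53 CPM, from 0 to 12 counts per library, and 4 of the 12 libraries held none. In HDM parenchyma it ran from 19.9 through a median of 26.7 to 37.5 CPM, and the groups did not overlap. The ratio of the group means was 199.5-fold, from 26.8 ± 6.2 against 0.134 ± 0.166 CPM (SD, n = 10 and 12), and the fitted log2FC was 8.07 ± 0.93 (SE, limma-voom adjusted p = 2.2e-10). The fitted value rests on counts near 0 in the controls, where 8 of the 12 libraries held 3 counts or fewer, and is no bound on the fold. In airways Thbs4 ran from 0.353 (median 0.681) to 8.67 CPM in PBS and from 5.36 (median 17.8) to 44.1 in HDM, with 9 of 10 HDM libraries above every PBS library (log2FC 3.97 ± 0.46, limma-voom adjusted p = 3.8e-10). For the 4 marker lists that Thbs4 followed most closely among airway libraries, the median sums in PBS and HDM airways were 2.88 and 1.48 CPM for cartilage, 13.2 and 8.18 for Schwann cells, 73.3 and 10.2 for adipocytes, and 1.79 and 2.425 for thyroid, the list that was higher with HDM. Their part in the airway level of Thbs4 was not tested.

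Vcan showed a tissue difference of the same kind. In parenchyma it ran from 3.4 (median 4.9) to 5.55 CPM in PBS and from 12.8 (median 18.2) to 28.7 in HDM, without overlap, a 3.54-fold rise (log2FC 1.82 ± 0.30, limma-voom adjusted p = 5.3e-07). In airways the ranges were 11.1 to 43.5 CPM in PBS and 18.4 to 46.01 in HDM, and the log2FC of 0.23 (95% interval -0.16 to 0.62) did not pass. Among airway libraries Vcan followed the fibroblast and smooth muscle marker lists most closely. From PBS to HDM airways the median fibroblast sum went from 2137 to 1476 CPM and the smooth muscle sum from 560 to 397, with overlapping ranges. Their part in the airway result of Vcan was not tested. HDM brought parenchyma, at a mean of 19.0 ± 5.3 CPM, near to the level that airways held without HDM, 23.7 ± 13.2 CPM.

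Fn1 and Tnc rose in both tissues. Fn1 in parenchyma went from 150 to 372 CPM (median 273) in PBS to 432 to 832 (median 714) in HDM, without overlap (log2FC 1.17 ± 0.19, limma-voom adjusted p = 4.8e-07). In airways it went from 171.9 to 280 CPM (median 232) to 174.04 to 933.7 (median 548), and 9 of 10 HDM libraries exceeded every PBS library while 1 stayed at the PBS level (log2FC 0.94 ± 0.19). Tnc in parenchyma went from 6.27 to 20.8 CPM (median 14.2) to 27.3 to 71.5 (median 38.2), also without overlap (log2FC 1.35 ± 0.20, limma-voom adjusted p = 6.7e-08). Its airway ranges overlapped, at 9.495 to 30.8 and 20.7 to 52.2 CPM (log2FC 0.89 ± 0.19). Macrophage and leukocyte markers rose beside them: in parenchyma the macrophage sum of 7 markers had a range of 256 to 397 CPM in PBS and 861 to 1088 in HDM, and the leukocyte sum of 4 markers 578 to 822 and 1593 to 2158. The median fibroblast sum there went from 769 to 912 CPM, with overlapping ranges. Among parenchyma libraries of all groups, with group means subtracted, Pearson's r of log2 Fn1 and Tnc was 0.004 and -0.15 with the macrophage sum. It was 0.07 and 0.30 with the leukocyte sum and 0.40 and 0.52 with the fibroblast sum. Among airway libraries these values were 0.60 and 0.01, 0.05 and 0.14, and -0.20 and 0.27. The part of these cells in the Fn1 and Tnc results was not tested.

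Postn fell, most in parenchyma. There it ran from 249 (median 298) to 345 CPM in PBS and from 123.5 (median 162.97) to 201.7 in HDM, without overlap, a 2.01-fold fall (log2FC -1.01 ± 0.08, limma-voom adjusted p = 3.5e-14). In airways the fall was smaller, from 157.8 to 244 CPM (median 191.3) to 126.7 to 221 (median 168.5), and the ranges overlapped (log2FC -0.26 ± 0.09, limma-voom adjusted p = 0.0068). Over the same comparison in parenchyma the fibroblast marker sum went from a median of 769 to 912 CPM, and that of 5 endothelial markers from 1427 (1212 to 1757) to 686 (557 to 849), without overlap. In airways the endothelial median went from 1197 (820 to 1327) to 522 (378 to 717) CPM, also without overlap. The part of these cells in the fall of Postn was not tested.

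Of the elastic fibre genes, Eln rose while Fbn1 did not pass. Eln in parenchyma ran from 6.53 (median 14.0) to 26.3 CPM in PBS and from 35.7 (median 47.7) to 101.7 in HDM, without overlap (log2FC 1.92 ± 0.26, limma-voom adjusted p = 1.2e-08). In airways it ran from 11.3 (median 25.6) to 73.1 CPM and from 28.8 (median 60.6) to 82.1 (log2FC 1.11 ± 0.23). HDM brought both tissues to a similar mean, 58.1 ± 13.7 CPM in airways and 60.7 ± 26.3 in parenchyma. Fbn1, the scaffold on which elastin is laid, had log2FC values of -0.10 (95% interval -0.35 to 0.14) in airways and 0.07 (-0.17 to 0.31) in parenchyma.

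The lysyl oxidases moved in different directions. Lox, at chr18:52516067-52529867 on the minus strand, rose in parenchyma without overlap, from 39.7 to 67.2 CPM (median 53.01) to 74.1 to 167.8 (median 84.4; log2FC 0.73 ± 0.13, limma-voom adjusted p = 3.1e-06), and in airways from a median of 48.1 to 66.6 CPM (log2FC 0.51 ± 0.13). Loxl1, the family member tied to elastin upkeep, fell in airways from 34.8 to 95.1 CPM (median 51.02) to 22.6 to 39.8 (median 29.5), with 6 of 10 HDM libraries below every PBS library (log2FC -0.84 ± 0.13, limma-voom adjusted p = 1.7e-07). In parenchyma its fall was small (log2FC -0.36 ± 0.13, limma-voom adjusted p = 0.011), and the call was lost with DESeq2 size factors, without the filter on low counts, with all libraries in 1 fit (log2FC -0.24 to -0.30) and in 11 of 43 fits that each left out 1 library. Loxl2 did not pass in either tissue (log2FC -0.12 and 0.13).

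Levels were also divided by the length of merged exons, which counts the exons of every annotated transcript of a gene. That length can exceed that of the transcripts present, so the order of the genes is approximate. Per kilobase (kb), PBS parenchyma at 3 weeks held most Postn (33.5 CPM per kb), then Fn1 (23.3), Loxl1 (11.52), Lox (10.8), Fbn1 (4.64), Loxl2 (2.09), Tnc (1.86), Eln (1.74), Vcan (0.329) and Thbs4 (0.0408). After HDM the order of these means was Fn1 (57.03), Lox (19.9), Postn (18.3), Loxl1 (9.62), Thbs4 (8.15), Eln (7.49), Fbn1 (5.36), Tnc (5.15), Loxl2 (2.54) and Vcan (1.31). Thbs4 thus moved from the lowest of the 10 to a mean near those of Eln and Fbn1.

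The HDM effect was then compared between the tissues by an interaction term, airway less parenchyma. For 3 of the 10 genes it passed, 1 higher, against 10.8% of all genes, and 2 lower, against 6.44%. The effect was smaller in airways for Thbs4 (difference of log2FC -4.10 ± 1.04, limma-voom adjusted p = 0.0058) and Vcan (-1.59 ± 0.36, limma-voom adjusted p = 0.0024), and the fall of Postn was smaller there (0.75 ± 0.12, limma-voom adjusted p = 8.5e-05). The Thbs4 difference rests on PBS parenchyma counts near 0 and is no bound on its size. Mean Thbs4 after HDM was 19.6 CPM in airways and 26.8 in parenchyma. For Eln (-0.81, 95% interval -1.49 to -0.13) and Loxl1 (-0.48, -0.84 to -0.13) the adjusted test did not pass, while 5 genes passed with DESeq2 and likewise when PBS airway replicate 3 was left out. Over all genes the split of calls depended on the scaling, with 1883 higher and 1119 lower under TMM and 1096 and 1509 under DESeq2 size factors, and Thbs4, Vcan and Postn kept their direction and call under both.

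Controls of the tissues differed before any HDM. In PBS mice at 3 weeks, 6 of the 10 were higher in airways (24.3% of all genes) and 1 was lower (31.7%). Vcan in airways, at 11.1 to 43.5 CPM, lay above every parenchyma library, at 3.4 to 5.55 (log2FC 2.11 ± 0.29, limma-voom adjusted p = 8.1e-08), and Postn, at 157.8 to 244 against 249 to 345, below every one (log2FC -0.64 ± 0.08). Thbs4 (3.48), Eln (0.84), Loxl2 (0.76), Loxl1 (0.46) and Fbn1 (0.41) were higher in airways with overlapping ranges. In PBS AIR mice at 11 weeks, 2 were higher in airways (26.3% of all genes) and 3 lower (30.1%): Thbs4 (log2FC 3.85) and Vcan (1.75) were again higher and Postn (-0.71) again lower, while Lox (-0.63) and Fn1 (-0.45) were lower in airways. Across the 101 airway libraries, after each group's mean was subtracted, log2 Vcan rose with the log2 fibroblast sum (Pearson's r = 0.77) and the smooth muscle sum (r = 0.73), Loxl2 did likewise (0.73 and 0.75), and log2 Thbs4 rose with the sums for thyroid (0.73), Schwann cells (0.66), cartilage (0.65), adipocytes (0.62) and fibroblasts (0.56) and fell with that for alveolar epithelium (-0.66). These libraries share the dissection, and the part of these cells in the airway levels was not tested.

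At 11 weeks, after weeks of further HDM, 5 of the 10 genes rose in airways (31.3% of 18250 genes) and 1 fell (29.8%), and 5 rose in parenchyma (32.6%) and 1 fell (26.9%). Thbs4 remained the gene with the largest change. In parenchyma it ran from 0 (median 0.113) to 0.591 CPM in PBS AIR and from 5.69 (median 11.6) to 39.7 in HDM AIR, without overlap, a ratio of means of 70.15-fold (limma-voom adjusted p = 1.7e-11). In airways it ran from 0.583 (median 1.19) to 6.29 CPM and from 4.45 (median 9.87) to 28.1 (log2FC 2.87 ± 0.43, limma-voom adjusted p = 2e-09).

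Tnc, Fn1, Lox and Vcan also kept their rise. Tnc in parenchyma went from 7.15 to 20.2 CPM (median 10.9) to 20.8 to 48.96 (median 28.4), without overlap (log2FC 1.44 ± 0.29), and in airways its log2FC was 0.88 ± 0.28 (limma-voom adjusted p = 0.0038). Fn1 rose by 0.85 ± 0.13 in airways and 0.88 ± 0.13 in parenchyma on the log2 scale, with 9 of 10 HDM AIR libraries above every control in each tissue. Lox rose by 0.88 ± 0.18 and 0.49 ± 0.17, and Vcan in parenchyma by 1.38 ± 0.31, with all 10 HDM AIR libraries (6.01 to 17.4 CPM) above the controls (3.13 to 5.22). Fbn1 rose in airways (0.40 ± 0.12) and did not pass in parenchyma (0.24 ± 0.12, limma-voom adjusted p = 0.072), and the difference between tissues did not pass (0.17 ± 0.16).

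Postn fell in parenchyma from 300 to 421 CPM (median 371) to 185.4 to 312 (median 233; log2FC -0.61 ± 0.12, limma-voom adjusted p = 3.4e-06), and in airways its log2FC was -0.04 (95% interval -0.27 to 0.19). The median endothelial sum went from 2569 to 954 CPM in parenchyma and from 1557 to 765 in airways, and its part was not tested. Loxl2 fell in airways (log2FC -0.34 ± 0.13, limma-voom adjusted p = 0.023). In parenchyma it did not pass, at means of 20.2 ± 3.4 CPM in PBS AIR and 16.4 ± 3.0 in HDM AIR. Other settings called it lower there, among them all libraries in 1 fit (-0.34, limma-voom adjusted p = 0.035) and each tissue on its own (-0.30, 0.047). From PBS AIR to HDM AIR airways the median smooth muscle sum went from 932 to 323 CPM, and its part was not tested. The tissue interaction passed for the same 3 genes as at 3 weeks, 1 higher (12.7% of all genes) and 2 lower (14.9%): Thbs4 (-4.06 ± 1.00), Vcan (-1.35 ± 0.38) and Postn (0.57 ± 0.17). The Thbs4 value again rests on control counts near 0, with 5 of 10 PBS AIR parenchyma libraries at 3 counts or fewer.

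**Figure D2:**
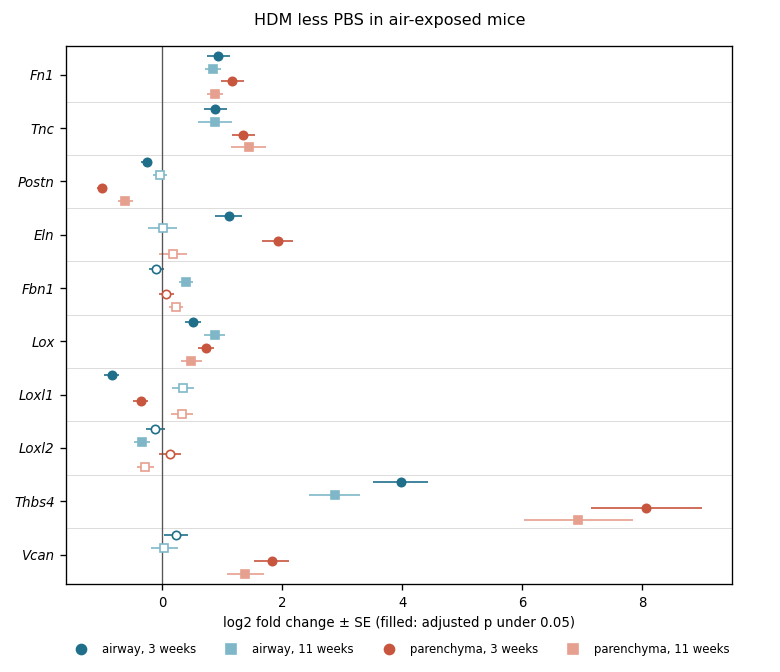
Change with HDM (HDM less PBS, air-exposed mice without dexamethasone) for each gene (rows) as log2 fold change ± SE (x axis), in airways (blue) and parenchyma (red) at 3 weeks (circles) and 11 weeks (squares), with filled symbols where the limma-voom adjusted p was under 0.05. Eln lies at 1.11 and 1.92 at 3 weeks and near 0 at 11 weeks, and Thbs4 lies farthest right in all 4 comparisons.

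Of the changes in the HDM effect between the weeks that passed, those of Eln were the largest in size. At 11 weeks it did not pass in airways (log2FC 0.01, 95% interval -0.46 to 0.48) or parenchyma (0.18, -0.29 to 0.65). In 1 fit of the libraries of both weeks, the effect at 11 weeks less that at 3 weeks was -1.16 ± 0.34 in airways (limma-voom adjusted p = 0.0057) and -1.87 ± 0.37 in parenchyma (limma-voom adjusted p = 8.9e-06). The level after HDM was similar at both weeks, 60.7 ± 26.3 CPM at 3 and 66.6 ± 24.5 at 11 weeks in parenchyma, whereas the PBS level was 14.1 ± 4.9 CPM at 3 weeks and 63.3 ± 34.5 at 11 weeks. In airways the PBS level was 28.6 ± 17.7 and 69.7 ± 30.2 CPM. Among the 10 PBS AIR parenchyma libraries at 11 weeks Eln ranged from 35.6 to 132.2 CPM, all above the 12 PBS libraries at 3 weeks (6.53 to 26.3). Week and the set of libraries it was measured in cannot be told apart.

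Loxl1 turned the other way: its fall at 3 weeks was gone at 11 weeks (log2FC 0.35 and 0.33, neither of which passed), a change of 1.13 ± 0.23 in airways (limma-voom adjusted p = 7e-05) and 0.56 ± 0.24 in parenchyma (limma-voom adjusted p = 0.047). Its PBS airway level was 54.8 ± 17.2 CPM at 3 weeks and 35.4 ± 10.2 at 11 weeks. In all, 2 genes changed upwards (Loxl1 and Fbn1, 0.44 ± 0.17; 14.5% of 18528 genes) and 1 downwards (13.9%) in airways, and 1 upwards (21.5%) and 2 downwards (20.9%; Eln and Loxl2, -0.54 ± 0.22) in parenchyma. The calls for Fbn1, for Loxl1 in parenchyma and for Loxl2 were each lost under at least 1 other setting, with adjusted p values of 0.054 to 0.38.

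Smoke was examined next, as PBS CS less PBS AIR. In airways 2 genes rose (7.66% of all genes) and 1 fell (6.03%), and in parenchyma 3 rose (17.7%) and 2 fell (18.2%). Postn fell in parenchyma from 300 to 421 CPM (median 371) to 123.1 to 242 (median 196.5), without overlap (log2FC -0.92 ± 0.12, limma-voom adjusted p = 7.7e-11), and in airways by 0.33 ± 0.12 on the log2 scale, a call lost when each tissue was fitted on its own (adjusted p = 0.077). Lox rose in both tissues, from a median of 35.5 to 65.5 CPM in airways (log2FC 0.91 ± 0.18, limma-voom adjusted p = 4.1e-05) and from 55.7 to 85.7 in parenchyma (0.65 ± 0.17), where 9 of 10 CS libraries exceeded every control.

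Fbn1 rose with smoke in airways, from 41 to 85.8 CPM (median 48.4) to 60.6 to 94.97 (median 81.3; log2FC 0.61 ± 0.12). Eln (0.70 ± 0.24) and Loxl1 (0.44 ± 0.18) rose and Loxl2 (-0.49 ± 0.14) fell in parenchyma, each with overlapping ranges, and the Loxl1 call was lost with edgeR, with DESeq2, with DESeq2 size factors and without the filter (adjusted p 0.051 to 0.10). With smoke alone Thbs4 did not pass, at 0.0324 to 0.469 CPM in parenchyma and 0.288 to 10.2 in airways, where HDM AIR libraries held 5.69 to 39.7 and 4.45 to 28.1. Vcan in CS parenchyma ran from 3.35 to 12.8 CPM with 9 of 10 libraries above every control, but the adjusted test did not pass (log2FC 0.78 ± 0.33, limma-voom adjusted p = 0.051) while edgeR and DESeq2 called it (adjusted p = 0.0028 and 0.0019).

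**Figure D3:**
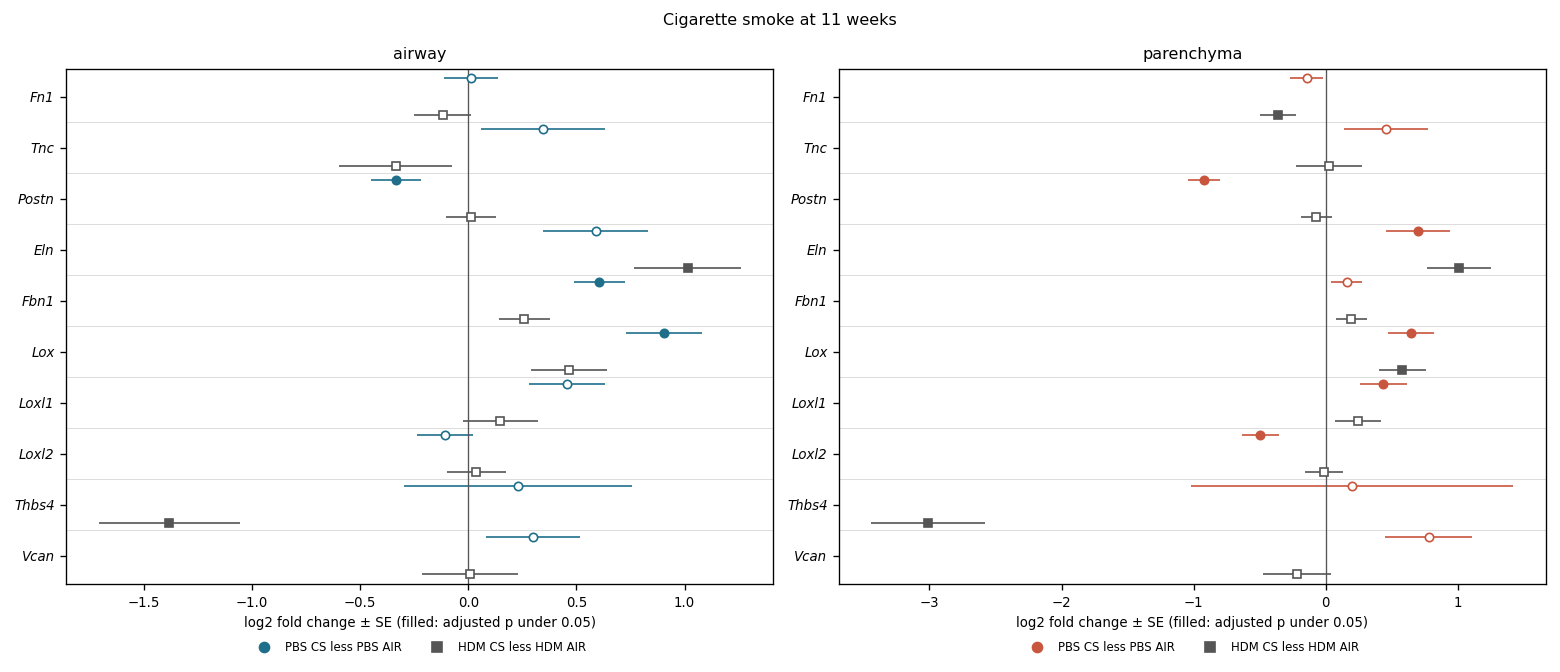
Change with cigarette smoke at 11 weeks for each gene (rows) as log2 fold change ± SE (x axis, scaled separately in each panel) in airways (left) and parenchyma (right), in PBS mice (circles) and HDM mice (grey squares), filled where the limma-voom adjusted p was under 0.05. Thbs4 lies at -1.38 and -3.01 in HDM mice and near 0 in PBS mice, and Postn in parenchyma lies at -0.92 in PBS mice and -0.07 in HDM mice.

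When smoke was added to HDM (HDM CS less HDM AIR), 1 gene rose (6.07% of all genes) and 1 fell (10.1%) in airways, and 2 rose (10%) and 2 fell (14.1%) in parenchyma. Thbs4 fell in parenchyma from 5.69 to 39.7 CPM (median 11.6) to 0.323 to 4.91 (median 2.26), without overlap, a ratio of means of 6.94-fold (log2FC -3.01 ± 0.43, limma-voom adjusted p = 1.7e-08). It also fell in airways, where the ranges of 4.45 to 28.1 and 1.05 to 9.37 CPM overlapped (log2FC -1.38 ± 0.33, limma-voom adjusted p = 0.00099; DESeq2 adjusted p = 0.072). Eln rose in both tissues, by 1.01 ± 0.25 in airways and 1.01 ± 0.24 in parenchyma on the log2 scale, with medians of 55.6 and 148.98 CPM in HDM AIR and HDM CS airways and 56.9 and 121.5 in parenchyma. Lox did not pass in airways. Other settings called it higher there, among them all libraries in 1 fit (0.48, limma-voom adjusted p = 0.035) and quality weights (0.53, 0.0097). In parenchyma Lox rose (0.58 ± 0.18), from a range of 47.4 to 113.2 to one of 87.1 to 137.3 CPM. Fn1 fell slightly there (-0.36 ± 0.14, limma-voom adjusted p = 0.039), a call lost without the pair of libraries that stood apart (log2FC -0.33, adjusted p = 0.08) and with all libraries in 1 fit (0.11). These comparisons share the HDM AIR libraries with the HDM effect, as the smoke effect shares its PBS AIR libraries.

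The interaction of HDM and smoke, the HDM effect under smoke less that in air, passed for no member in airways with limma-voom (7.72% of all genes higher, 11.4% lower); Thbs4 lay at -1.61 ± 0.62 (limma-voom adjusted p = 0.052), which edgeR called (adjusted p = 0.035). At an unadjusted p under 0.05, 1 gene was higher and 2 were lower, and DESeq2 called none. In parenchyma 1 passed upwards (17.3%) and 2 downwards (18.7%). Postn had an interaction of 0.85 ± 0.17 (limma-voom adjusted p = 1.2e-05), with medians of 371 CPM in PBS AIR, 233 in HDM AIR, 196.5 in PBS CS and 226 in HDM CS. For Thbs4 the interaction was -3.21 ± 1.30 and for Vcan -1.0 ± 0.42, both close to the threshold (limma-voom adjusted p = 0.042 and 0.049). The Thbs4 value rests on PBS counts near 0 and is no bound on its size. The Thbs4 call was lost with edgeR (adjusted p = 0.057), the Vcan call with DESeq2 size factors, with all libraries in 1 fit and without the filter (0.054 to 0.064), and both with a CPM minimum of 10 (0.19 and 0.11).

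Dexamethasone was compared with no dexamethasone within each exposure, so that the PBS AIR and HDM AIR libraries are again those of the comparisons above. In PBS AIR mice it raised 5 of the 10 genes in airways (8.03% of all genes) and lowered 1 (6.85%), and raised 4 (10.6%) and lowered 2 (12%) in parenchyma. In airways Fbn1 rose from 41 to 85.8 CPM (median 48.4) to 72.7 to 121.2 (median 86.9; log2FC 0.82 ± 0.12, limma-voom adjusted p = 4.8e-08), Lox from a median of 35.5 to 61.7, Loxl1 from 36.5 to 64.5, Eln from 60.3 to 139.1 and Tnc from 13.2 to 24.9. Eln, Lox, Loxl1 and Tnc also rose in parenchyma (log2FC 0.65, 0.63, 0.48 and 1.02), though the Eln and Loxl1 calls were lost with edgeR, with DESeq2 and without the filter (adjusted p 0.054 to 0.11).

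Fn1 and Postn went down with dexamethasone in PBS AIR parenchyma. Fn1 went from 226 to 334 CPM (median 303) to 122.01 to 192.47 (median 158.4), without overlap (log2FC -0.86 ± 0.12, limma-voom adjusted p = 1.5e-08). Postn went from 300 to 421 CPM to 192.7 to 275, also without overlap (log2FC -0.58 ± 0.12, limma-voom adjusted p = 9.2e-05). In airways the fall of Fn1 was smaller (log2FC -0.37 ± 0.12, limma-voom adjusted p = 0.028) and was lost without the filter, with all libraries in 1 fit and with each tissue on its own (adjusted p 0.051 to 0.058). Thbs4 in PBS AIR DEX parenchyma was at or under 3 counts in all 10 libraries, and no fold against it is read.

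In HDM AIR mice, dexamethasone raised 1 gene (12.5% of all genes) and lowered 3 (16%) in airways, and raised 1 (12.2%) and lowered 3 (16.2%) in parenchyma. With limma-voom the same 4 genes were called in both tissues: Eln rose, and Thbs4, Fn1 and Postn fell. DESeq2 also called Loxl1 higher in airways (log2FC 0.43, adjusted p = 0.044) and Vcan lower in parenchyma (-0.58, 0.043), as did edgeR. Thbs4 in parenchyma went from 5.69 to 39.7 CPM (median 11.6) to 0.55 to 4.19 (median 1.01), without overlap, a ratio of means of 10.95-fold (log2FC -3.41 ± 0.48, limma-voom adjusted p = 2.8e-09). In airways it went from 4.45 to 28.1 CPM (median 9.87) to 1.12 to 6.18 (median 2.84), with 9 of 10 libraries below every HDM AIR library (log2FC -2.18 ± 0.38). Fn1 fell by 0.80 ± 0.13 in parenchyma and 0.68 ± 0.13 in airways on the log2 scale, to means of 298 ± 37.6 and 236 ± 38.9 CPM, close to the 291 ± 37.8 and 213 ± 42.2 of PBS AIR mice. Postn fell to a median of 162.4 CPM in parenchyma and 153.6 in airways, below the 371 and 215 of PBS AIR mice. Eln rose to medians of 108.3 and 125.5 CPM. The marker sums moved in different directions. The leukocyte sum fell from 1206 to 1776 CPM (median 1495) to 794 to 1138 (median 951) in parenchyma, without overlap. In airways it fell from 1249 to 1636 (median 1420) to 742 to 1148 (median 896), also without overlap. The fibroblast sum fell with overlap, from a median of 1287 to 713 in parenchyma and from 1592 to 1091 in airways. The median macrophage sum went from 874 to 873 CPM in parenchyma and from 731 to 770.5 in airways. The median rose for alveolar epithelium, from 20890 to 28300 in parenchyma and from 15250 to 24460 in airways. It also rose for endothelium, from 954 to 1183 and from 765 to 1023. The part of these cells in these results was not tested.

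**Figure D4:**
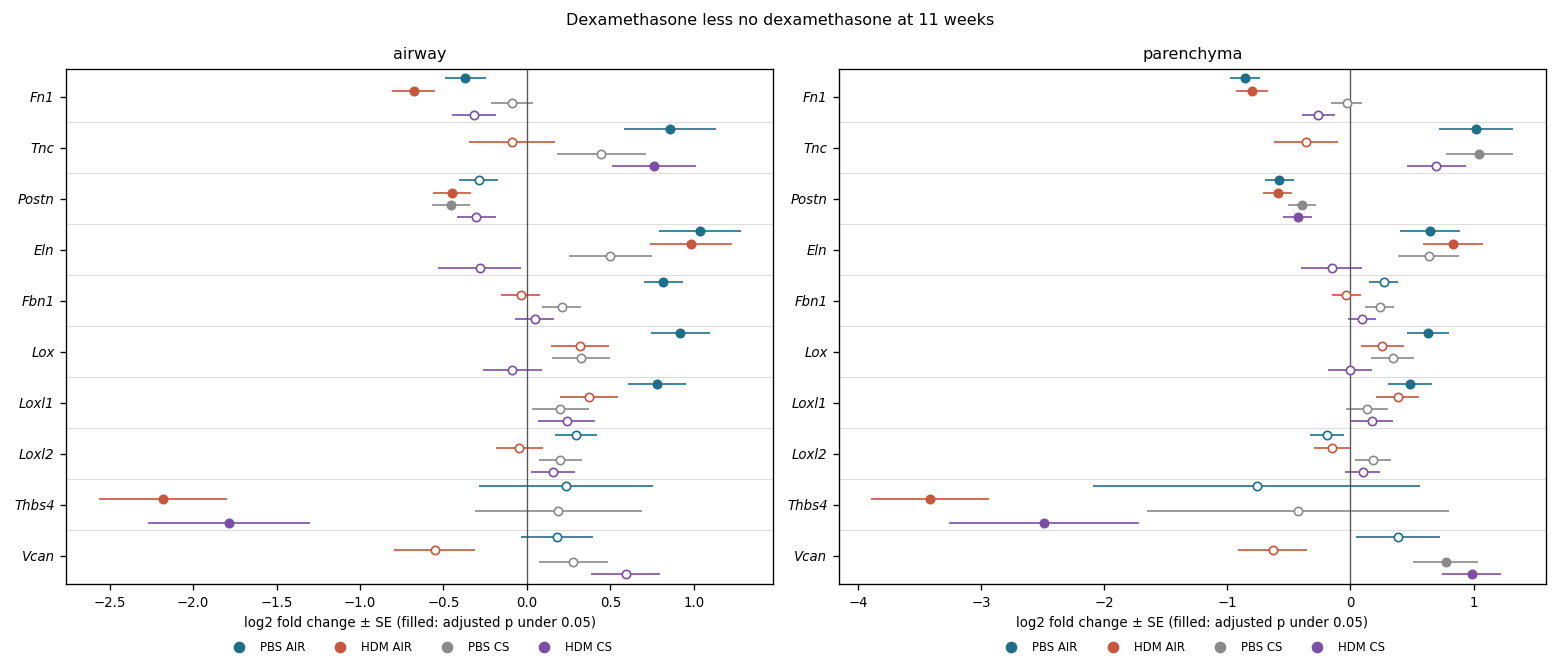
Change with dexamethasone at 11 weeks for each gene (rows) as log2 fold change ± SE (x axis, scaled separately in each panel) within PBS AIR, HDM AIR, PBS CS and HDM CS mice, in airways (left) and parenchyma (right), filled where the limma-voom adjusted p was under 0.05. Postn lies below 0 in all 8 comparisons, of which 6 passed, and Thbs4 passes in the HDM groups at -1.79 to -3.41.

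In smoke-exposed mice fewer calls were made. In PBS CS airways none rose with limma-voom, edgeR or DESeq2 (4.68% of all genes, with 1 member at an unadjusted p under 0.05). With quality weights Fbn1 was called higher there (log2FC 0.34, limma-voom adjusted p = 0.041). Postn fell in PBS CS airways (6.6%, log2FC -0.45 ± 0.11, limma-voom adjusted p = 0.0024). In PBS CS parenchyma Tnc and Vcan rose (7.39%) and Postn fell (9.49%, -0.40 ± 0.11). In HDM CS airways Tnc rose (2.25%; 0.76 ± 0.25) and Thbs4 fell (7.05%; -1.79 ± 0.49), and in HDM CS parenchyma Vcan rose (2.46%; 0.98 ± 0.24) and Thbs4 and Postn fell (5.4%; -2.49 ± 0.77 and -0.43 ± 0.12). Thbs4 in HDM CS DEX parenchyma ran from 0.117 (median 0.232) to 0.667 CPM, with 8 of 10 libraries below every HDM CS library (0.323 to 4.91). The Thbs4 call in HDM CS parenchyma was lost with a CPM minimum of 10 (adjusted p = 0.18), and the Tnc call in HDM CS airways without the filter (0.06). Near the threshold, Tnc in HDM CS parenchyma (0.70 ± 0.24, limma-voom adjusted p = 0.054), Eln in PBS CS parenchyma (0.64 ± 0.25, 0.06) and Vcan in HDM CS airways (0.59 ± 0.21, 0.052) did not pass but were called by DESeq2 (adjusted p = 0.016, 0.028 and 0.05), the first and second also by edgeR (0.027 and 0.042).

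A few libraries weighed on these Tnc and Vcan values. In the PBS CS DEX and HDM CS DEX groups, 1 library per group and tissue held far more Tnc than the rest: 159.4 CPM against 10.48 to 40.4 in PBS CS DEX parenchyma (replicate 6), 148.7 against 26.8 to 59.1 in HDM CS DEX parenchyma (replicate 8), 72.2 against 12.2 to 26.9 in PBS CS DEX airways (replicate 6) and 71.2 against 23.4 to 41.2 in HDM CS DEX airways (replicate 8). Within each of these exposures, the airway and the parenchyma library had consecutive codes, and the labels do not say whether 1 animal gave both. HDM CS DEX parenchyma replicate 8 also had the highest Fn1 (606 CPM), Fbn1 (126.1), Loxl2 (43.9) and Vcan (54.4) of its group, with a fibroblast marker sum of 1729 CPM against 740 to 981 in the others. Without these 4 libraries, Tnc in PBS CS parenchyma kept its call (log2FC 0.78 against 1.05), as did Tnc in HDM CS airways (0.64 against 0.76) and Vcan in HDM CS parenchyma (0.82 against 0.98), and Vcan in PBS CS parenchyma lost it (0.63, adjusted p = 0.061). Fn1 and Postn in HDM CS airways and Eln in PBS CS parenchyma then passed (log2FC -0.41, -0.36 and 0.74). Tnc in HDM CS parenchyma (0.51 against 0.70) and Vcan in HDM CS airways (0.45 against 0.59) moved farther from the threshold (limma-voom adjusted p = 0.13 and 0.15).

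Under dexamethasone, the HDM effect (HDM AIR DEX less PBS AIR DEX) passed upwards for 1 gene in airways (23.6% of all genes) and downwards for 3 (26.1%), and upwards for 2 (22.6%) and downwards for 1 (19.6%) in parenchyma. Fn1 remained higher with HDM in both tissues, by 0.54 ± 0.12 in airways and 0.94 ± 0.12 in parenchyma on the log2 scale, in the latter without overlap (122.01 to 192.47 CPM in PBS AIR DEX and 245 to 349 in HDM AIR DEX). Thbs4 in parenchyma also remained higher, at 0.55 to 4.19 CPM against 0 to 0.114. Postn was lower in parenchyma (-0.63 ± 0.11), and in airways Loxl2 (-0.68 ± 0.13), Fbn1 (-0.45 ± 0.12) and Vcan (-0.70 ± 0.24) were lower, Loxl2 without overlap (14.1 to 19.9 against 22.1 to 41.1 CPM).

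The interaction of HDM and dexamethasone, which tests whether the drug changed the HDM effect, passed downwards for 2 genes in airways (3.52% of all genes, with 1.11% upwards) and for 1 in parenchyma (6.38%, with 6.02% upwards), and upwards for none with limma-voom, edgeR or DESeq2 (0 at an unadjusted p under 0.05). Thbs4 in airways had an interaction of -2.42 ± 0.65 (limma-voom adjusted p = 0.012) and Fbn1 in airways of -0.85 ± 0.17 (limma-voom adjusted p = 0.00019). Airway Fbn1 means were 53.3 CPM in PBS AIR, the lowest of the 20 groups, 69.35 in HDM AIR, 90.9 in PBS AIR DEX and 67.2 in HDM AIR DEX. In parenchyma the Thbs4 interaction did not pass. It is not read, because all 10 PBS AIR DEX libraries there held 3 counts or fewer. Tnc in parenchyma had one of -1.39 ± 0.40 (limma-voom adjusted p = 0.012): its medians were 10.9 CPM in PBS AIR, 28.4 in HDM AIR, 28.9 in PBS AIR DEX and 25.6 in HDM AIR DEX, so Tnc was at a similar level in the 3 groups that had received HDM, dexamethasone or both. Vcan in parenchyma did not pass with limma-voom (-1.02 ± 0.44, adjusted p = 0.11) but was lower with edgeR and DESeq2 (adjusted p = 0.023 and 0.017). For Fn1 in parenchyma the interaction was 0.06 (95% interval -0.29 to 0.41).

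**Figure D5:**
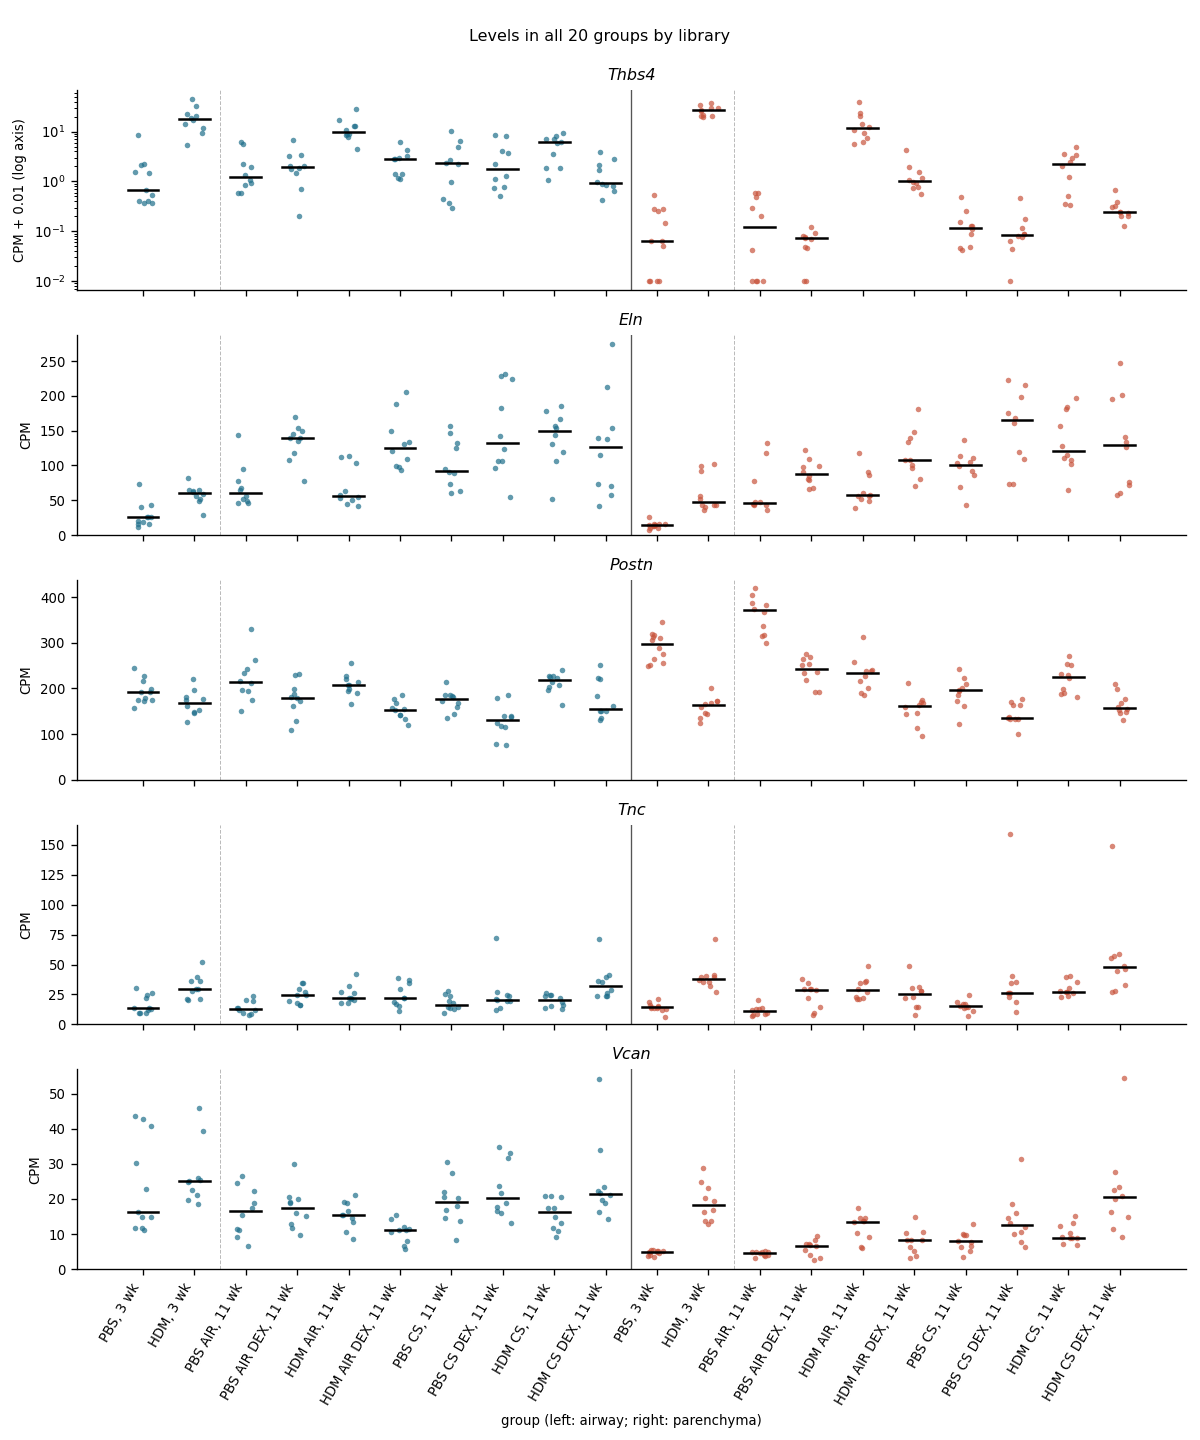
Levels of Thbs4 (CPM + 0.01, log axis) and of Eln, Postn, Tnc and Vcan (CPM) in every library of the 20 groups, airway at left (blue) and parenchyma at right (red), with the group median as a bar and dashed lines between the 3-week and 11-week groups. Median Thbs4 in parenchyma lies at 26.7 CPM in HDM mice at 3 weeks, 11.6 in HDM AIR, 2.26 in HDM CS and 0.232 in HDM CS DEX mice at 11 weeks.

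Across the 20 groups the members differed in how far their means spread. The highest group mean was 10.8-fold the lowest for Eln, 6.05-fold for Vcan, 4.84-fold for Tnc, 4.2-fold for Fn1, 3.17-fold for Lox, 2.79-fold for Postn, 2.4-fold for Loxl2, 1.89-fold for Loxl1 and 1.73-fold for Fbn1. For Thbs4 the means ran from 26.8 CPM in HDM parenchyma at 3 weeks to 0.0533 in PBS AIR DEX parenchyma. Fn1 was highest in HDM parenchyma at 3 weeks (666 CPM) and lowest in PBS AIR DEX parenchyma (158.8), and Postn highest in PBS AIR parenchyma (361) and lowest in PBS CS DEX airways (129.1). Fbn1 (53.3 CPM) and Lox (35.9) were lowest in PBS AIR airways, against 80.3 and 46.2 in PBS airways at 3 weeks. The airway effects of HDM, smoke and dexamethasone against PBS AIR mice, and their interactions, all share that group. When groups were ranked by mean, all 19 pairs of neighbours overlapped in range for every gene, and at least 17 of the 19 differed by less than 1 SD.

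The genes whose group means followed each member most closely, by Pearson's r of log2 CPM over the 20 group means, are given as a description. For Thbs4 they were Bcat1 (0.97), Igf1 (0.96) and Acpp (0.96), for Vcan Bdkrb1 (0.95), Has2 (0.94), a hyaluronan synthase, and Cldn4 (0.92), for Fn1 Fcgr1, Gm21188 and Clec4a2 (0.95 each), and for Eln Dagla, Stom and Dapk1 (0.94 each). Postn was followed by Scn3b (0.92), Txndc16 and Tcim (0.91 each), Lox by Tbc1d2, Cyp4v3 and Serinc2 (0.93 each), Loxl2 by Map1a, Cacng7 (0.92 each) and Serpinb8 (0.91), Loxl1 by Gm13883 (0.89), Slc46a1 (0.88) and Retsat (0.85), Tnc by Sprr1a (0.88), Tgm1 and Slc52a2 (0.86 each), and Fbn1 by Mthfsd (0.85), Col5a1 (0.81) and Gm17518 (0.79). After group means were subtracted, over all libraries, Fbn1 varied most with Col5a2 (0.84), Col5a1 (0.78) and Col6a3 (0.74), and Vcan with Col3a1 (0.81), Col1a2 (0.75) and Cyp7b1 (0.74). Tnc varied with Ccn4, Col3a1 (0.67 each) and Col6a3 (0.63), Loxl2 with Adamts2 (0.78), Kirrel (0.73) and Col1a2, Loxl1 with Fzd2 (0.78), Hic1 and Gm13889 (0.77 each), and Eln with Tmem171, Spon2 (0.68 each) and Ikzf4 (0.67). Fn1 varied with Clcn5 (0.67), Vcl (0.66) and Nrp2 (0.63), Lox with Pdgfra, Lipg (0.66 each) and Mmp8 (0.65), Thbs4 with Adam8 (0.66), H2-M2 (0.65) and Bcat2 (0.64), and Postn with Scn7a, Pla2r1 (0.60 each) and Pde5a (0.59). Among the members themselves, the highest values within groups were Tnc with Vcan (0.69), Eln with Fbn1 (0.67) and Fbn1 with Loxl2 (0.66). These points share library and dissection.

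The members were set beside lists of related matrix genes at 3 weeks of HDM. Of 16 elastic fibre genes, 3 rose and 11 fell in airways and 3 rose and 12 fell in parenchyma, with a median log2FC of -0.84 and -0.59, so the rise of Eln was not shared by most of its partners. Efemp1 (-2.19 in airways, -2.49 in parenchyma) and Ltbp4 (-1.87, -2.14), which take part in elastic fibre assembly, fell, and Emilin2 (1.49, 2.36) rose. Of 18 tested matricellular and fibronectin-bound genes, 4 rose and 13 fell in airways and 5 and 11 in parenchyma: Spp1, osteopontin, rose (2.93, 3.11), Tnxb fell (-2.43, -2.81) and Smoc1 fell in airways (-2.36; -0.07 in parenchyma).

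Of 17 tested proteoglycan and hyaluronan genes, 3 rose and 11 fell in airways and 4 and 10 in parenchyma. Has2, which makes the hyaluronan that versican binds, rose (1.29 in airways and 3.32 in parenchyma), and Ogn (-2.41, -2.83) and Bcan (-2.96, -3.10) fell. Among 7 proteases that cleave versican, 1 rose and 4 fell in each tissue: Adamts4 rose (2.22, 3.15), and Adamts5 (-1.55, -1.64) and Adamts1 (-1.26, -1.63) fell. Of 14 crosslinking and collagen processing enzymes, 4 rose and 5 fell in airways and 7 and 5 in parenchyma, where Plod3 rose (0.93, 1.38) and Plod2 (-1.26, -1.94) and Pcolce2 (-3.15, -3.05) fell.

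Of 13 matrix-binding integrin genes, 5 rose and 2 fell in airways and 7 and 5 in parenchyma. Itga5, the fibronectin receptor subunit, rose (1.21, 1.75), as did Itga2 (1.71, 1.25), and Itga8, which also binds fibronectin and tenascin C, fell (-2.83, -3.19). Of 8 matrix-inducing ligands, 4 rose and 3 fell in each tissue, among them Il13 (4.93, 5.06), Tgfb1 (1.23, 1.68) and Il4 (1.52, 0.90), which rose. The share of these lists that passed is to be read against the 34.1% to 44.3% of all genes that passed in each direction.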

How the data were processed

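RNA of dissected mouse airways and parenchyma was sequenced in 203 libraries. The authors deposited 1 table of estimated counts for 43346 Ensembl identifiers. The submitters' processing notes name bcl2fastq 2.20.0.422, STAR 2.5.1b, RSEM 1.2.31 and kallisto 0.44.0; which quantifier gave the table, and whether strand was used, are not given in the sources used here. Fractional entries made up 20.3% of those above 0, so the table was rounded to whole numbers. Overlapping and antisense genes may therefore share reads. Of the identifiers, 42462 matched GENCODE M21 without version and 23106 with it, and lengths and positions come from M21.

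Groups were taken from the labels. Libraries were scaled with TMM factors, and a gene was kept when 9 or more libraries reached the CPM that equals 10 counts at median depth. limma-voom (limma 3.58.1, edgeR 4.0.16, R 4.3.3) fitted 1 mean per group, with 43 libraries at 3 weeks, 160 at 11 weeks and all 203 for the change between weeks. A gene passed at a Benjamini-Hochberg adjusted p under 0.05 over all genes tested. Standard errors are on the log2 scale. The script was tested on simulated data. Results were also computed with DESeq2 1.42.0, with the quasi-likelihood test of edgeR, with DESeq2 size factors, other filters, quality weights, other sets of libraries and, at 3 weeks, each library left out in turn. CPM ranges cover all libraries of a group. Total counts had a median of 28090684. The labels do not say how libraries within a group relate beyond being separate samples, so p-values measure the spread between them.

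The named members and gene lists were chosen with earlier results of these data known. Other genes were named by fixed rules: within a list, those with the largest changes at 3 weeks, and for likeness, the 3 genes of highest Pearson's r. The fits without the 4 libraries with most Tnc, and those with libraries of neighbouring codes as a block, were added after the data were seen.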

Additional observations from a re-analysis of the deposited data

Results flagged for a closer look

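Of 180 combinations of gene and group with 10 or fewer libraries, 17 held a library far from the rest by Dixon's criterion, where chance gives about 1 in 20. Tnc held 5 of them, as the highest library: 71.5 CPM in HDM parenchyma at 3 weeks (replicate 6), 72.2 in PBS CS DEX airways (replicate 6), 71.2 in HDM CS DEX airways (replicate 8), 159.4 in PBS CS DEX parenchyma (replicate 6) and 148.7 in HDM CS DEX parenchyma (replicate 8). The last of these libraries was also highest for Fn1 (606.5 CPM), Fbn1 (126.1) and Loxl2 (43.9), and HDM CS DEX airway replicate 8 for Loxl2 (39.2). Lox stood out at 167.8 CPM in HDM parenchyma replicate 4 at 3 weeks, and Loxl2 at 41.1 in PBS AIR DEX airway replicate 10.

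The lowest library stood out for Postn in HDM CS airways (163.9 CPM, replicate 5) and PBS CS DEX parenchyma (99.8, replicate 3), for Eln in HDM airways at 3 weeks (28.8, replicate 5) and HDM CS airways (51.6, replicate 6), for Fbn1 in the latter library (54.7) and for Loxl2 in PBS CS parenchyma (8.52, replicate 9). No library was removed for these values in the results above.

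Interaction tests by limma-voom passed for 18 results. Between tissues the HDM effect differed for Vcan (-1.59 at 3 weeks and -1.35 at 11 weeks, airway less parenchyma), Thbs4 (-4.10 and -4.06, both on control counts near 0 in parenchyma) and Postn (0.75 and 0.57). Between weeks it differed in airways for Fbn1 (0.44), Eln (-1.16) and Loxl1 (1.13), and in parenchyma for Eln (-1.87), Loxl1 (0.56) and Loxl2 (-0.54). Between smoke and air it differed in parenchyma for Vcan (-1.0), Thbs4 (-3.21, likewise on PBS counts near 0) and Postn (0.85). With dexamethasone it differed in airways for Thbs4 (-2.42) and Fbn1 (-0.85) and in parenchyma for Tnc (-1.39).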

How the results depend on the processing

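No value of a member reversed its sign across a call under any alternative run. Of 280 member results, 265 kept direction and call with DESeq2, 267 with edgeR's quasi-likelihood test, 273 with DESeq2 size factors, 268 with a CPM minimum of 10, 271 without a filter, 262 with quality weights and 276 without the libraries that stood apart. With a log2FC of at least 1 in size also required, 8 of 20 results passed for HDM at 3 weeks (15 without that minimum), 4 of 20 for airway against parenchyma in controls (12), 4 of 20 for HDM at 11 weeks (12), 0 of 20 for smoke (8), 1 of 20 for HDM by smoke (3), 7 of 80 for dexamethasone (29), 1 of 20 for HDM under dexamethasone (7) and 3 of 20 for the change from 3 to 11 weeks (6); fewer pass by construction. The tissue difference at 3 weeks passed for 5 of 10 genes with DESeq2 and for 3 to 5 when each library was left out in turn, with 5 without PBS airway replicate 3; the HDM effect passed for 14 to 15. The cause was not tested. Over all genes, quality weights raised the calls for dexamethasone in HDM CS airways from 1697 to 3085, HDM CS parenchyma from 1434 to 2949, PBS AIR parenchyma from 4124 to 6431 and PBS CS parenchyma from 3080 to 4964, and for HDM by dexamethasone in airways from 844 to 1617, and a CPM minimum of 10 lowered those for airway against parenchyma in PBS mice at 3 weeks from 9744 to 6298. Replicate numbers were given in accession order and pair nothing, but 101 airway libraries have a parenchyma library of the same exposure and week with a neighbouring code. Deviations from the group means correlated over genes at a median r of 0.265 (-0.191 to 0.606) within these pairs, over 0.1 in 88 of them, and 76 of the airway libraries lay closest to their neighbour, a hint from the data that the labels do not state. With these pairs as a replicate block (limma's duplicateCorrelation, chosen after seeing the data), 272 of the 280 results kept direction and call. Tissue differences at 3 weeks passed for 4 genes, Loxl1 added (-0.48, adjusted p = 0.038), and those at 11 weeks for 3. Calls were also gained for Loxl1 (0.46) and Vcan (0.79) with smoke in airways and parenchyma, Lox in airways when smoke was added to HDM (0.47), and with dexamethasone for Vcan in HDM CS airways (0.59), Tnc in HDM CS parenchyma (0.70) and Eln in PBS CS parenchyma (0.63), and 1 was lost, Thbs4 for HDM by smoke in parenchyma (-3.24, adjusted p = 0.051). Depth limits Thbs4 in parenchyma without HDM, where most libraries held 3 counts or fewer.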
